A study of Homo sapiens with 36 samples.

Results

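HT29 is an established human colorectal adenocarcinoma line, and its response to wortmannin was described from 6 of the 36 libraries of the series. The members were chosen by their labels, as the 3 libraries of HT29 cells given 10 µM wortmannin for 24 h and the 3 libraries of HT29 cells given vehicle, 0.1% DMSO according to the labels, in the same batch, called batch A. In the study wortmannin served as a positive control for a water extract of *Aconitum carmichaeli* Debeaux (ACD), and the same agent was given to SW1783, an astrocytoma line. The sources do not say whether the 3 replicates of a group were separate cultures, so p-values measure only the spread between these samples. All genes of the table entered the comparison, and 13555 of 60675 received an adjusted p-value.

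Wortmannin is a fungal metabolite that binds covalently to the catalytic site of phosphoinositide 3-kinases (PI3K), the lipid kinases that relay signals of insulin and growth factor receptors to the kinases AKT and mTOR. At high concentrations it also inhibits the related kinases mTOR and DNA-PK and, outside that family, PLK1. When AKT is inactive, FOXO transcription factors enter the nucleus and raise genes of receptor signalling such as INSR, IRS2 and ERBB3. Interferon-stimulated genes are a separate programme of antiviral genes. In its classical form, type I or type III interferon binds its receptor, the kinases JAK1 and TYK2 phosphorylate STAT proteins, and these bind DNA together with IRF9 at an element built from repeated GAAA motifs.

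The 6 libraries held 17652481 to 29985875 counts, and 14489 to 15638 genes had 10 or more counts. The allowance of 3 counts for a gene at 0 corresponded to 0.1 to 0.17 CPM, that is, counts scaled to the library total, for counting error only. Vehicle replicate 1 stood apart from the other libraries of its group. Its counts differed from those of replicates 2 and 3 with a chi-square statistic per gene, which sampling noise alone would hold near 1, of 14.81 and 16.98, against 3.78 between replicates 2 and 3 and 2.43 to 2.72 among the wortmannin libraries. Its deviation from the other vehicles followed the exon length of genes with a Spearman rho of -0.52 across genes, which are not independent and share the library, so that short genes were counted higher in it. Vehicles of batch A and batch B that carried the same number gave only 1.46 to 1.54, against 4 to 17.67 for other numbers, and the sources do not say whether they came from the same cultures. The label of an intestinal epithelial line was checked against markers. All 10 epithelial markers were counted (summed level 11585 to 13206 CPM in vehicle and 13278 to 13855 CPM with wortmannin), against 14.8 to 16.5 CPM for 10 mesenchymal markers. Of the latter COL1A2, COL3A1 and SPARC had no count and VIM had 1 to 4 counts, while CAV1, FN1, LGALS1 and COL1A1 were counted and tested and did not pass the test, with CAV1 the highest at 186 to 278 counts. CD3D, CD3E, CD2 and MS4A1 of lymphocytes, FCGR3A, AIF1 and TYROBP of myeloid cells, and CDH5 and KDR of endothelium also had no count. The summed level of the 8 myeloid markers was nevertheless 1755 to 1887 CPM in vehicle and 2427 to 2488 CPM with wortmannin, and 2 of its 3 tested members were higher by adjusted p alone. These were LYZ, the lysozyme gene, which intestinal cells also express (34268 to 58410 counts, log2 fold change 0.39), and CD68, a lysosomal protein (130 to 252 counts, 0.54), and the third, CD14 (69 to 117 counts, 0.41), did not pass the test.

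To describe the overall response, differentially expressed genes (DEGs) were counted, that is, genes with an adjusted p-value under 0.05 in the Wald test of DESeq2 and a change of more than 1.5-fold. There were 362 DEGs, or 2.67% of the genes tested, with 262 upregulated (1.93%) and 100 downregulated (0.738%). Of these, 232 rises and 70 falls concerned protein-coding genes. Most changes were small, and 80 upregulated and 16 downregulated DEGs changed more than 2-fold. By adjusted p alone, 1051 genes were higher (7.75%) and 1525 lower (11.3%). The largest rises belonged to interferon-stimulated genes. Of the 80 genes that rose more than 2-fold, 42 were members of 4 lists of the interferon system. These lists together had 142 members, and 13555 genes were tested in all. Genes whose normalized counts averaged at least 100 and whose groups did not overlap are called well counted here, and all 12 of the largest rises among them were on these lists. The lists were chosen with earlier results of these data known, so these counts are not independent evidence. Among the falls, genes of mitosis were the main named group.

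**Figure D1:**
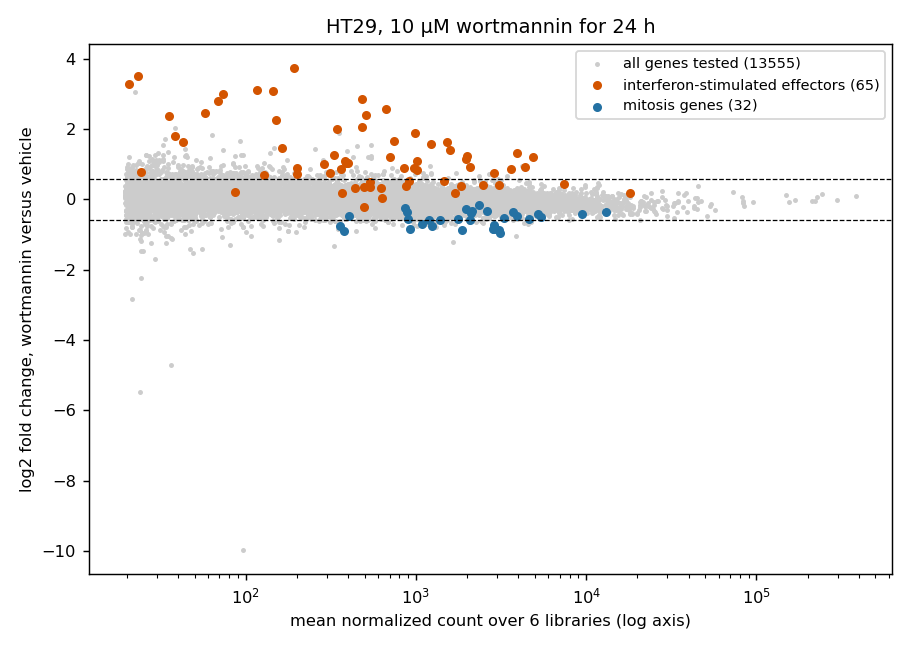
Log2 fold change of wortmannin versus vehicle (vertical axis) against the mean normalized count over the 6 libraries (horizontal log axis) for the 13555 genes tested in HT29, with dashed lines at a change of 1.5-fold. The 65 interferon-stimulated effectors (orange) lie mostly above the upper line, and the 32 mitosis genes (blue) lie below 0.

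The question of which antiviral genes responded was examined in a list of 70 interferon-stimulated effectors. Of these, 65 were tested, 46 rose (70.8%, against 1.93% of all genes tested) and none fell. By adjusted p alone 60 were higher (92.3%, against 7.75% of all genes tested). The median log2 fold change was 1.03, against -0.004 over all genes tested. In 62 of the 65, all wortmannin libraries lay above all vehicle libraries, which was the case for 20.9% of all genes tested, and 1 member, IFI30, a thiol reductase of antigen processing, lay below them without passing the test (-0.23). The summed level of the list was 2847, 2913 and 3024 CPM in the vehicle libraries and 5061, 4894 and 5256 CPM in the wortmannin libraries. With vehicle replicate 1 left out, 45 members rose and the median was 1.06. The list was drawn up with earlier results of these libraries known, so its count is not independent evidence.

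IFI44L (ENSG00000137959), an interferon-stimulated gene of chromosome 1, had the largest rise of the well-counted genes. Its normalized counts were 33.1, 22.8 and 25.9 in vehicle and 361.7, 309.9 and 395.2 with wortmannin, so that every wortmannin library was far above every vehicle library. The dynamin-like GTPases MX1 and MX2 trap viral nucleoproteins and capsids. MX1 (ENSG00000157601; chromosome 21, 41420020 to 41470071) went from 221, 156.2 and 205.1 to 1128, 1029 and 1247, a log2 fold change of 2.56 ± 0.13 (SE, DESeq2 adjusted p = 2.27e-81). MX2 went from 25.8, 25.7 and 40.8 to 265.7, 228.5 and 284.8. IFI44L, MX1 and MX2 were chosen among genes whose groups did not overlap, so this separation was set by the choice.

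The oligoadenylate synthetases respond to double-stranded RNA by making short adenylate chains that act as a second messenger. OAS2 (ENSG00000111335; chromosome 12, 112978395 to 113011723) had the smallest adjusted p-value of all genes. Its normalized counts were 120.3, 99.9 and 136.4 in vehicle and 870.8, 779.3 and 902 with wortmannin, a log2 fold change of 2.85 ± 0.13 (SE, DESeq2 adjusted p = 5.44e-98). OAS1 and OAS3 rose by 1.56 ± 0.09 and 1.32 ± 0.08 on the log2 scale, and the related OASL by 0.90 ± 0.17. All members of this family were thus higher, with OAS2 ahead.

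The IFIT proteins bind viral RNA. IFIT1 (ENSG00000185745; chromosome 10, 89392546 to 89406487) went from 184.1, 137 and 168.2 normalized counts to 866.5, 696 and 986.2, a log2 fold change of 2.39 ± 0.15 (SE, DESeq2 adjusted p = 3.29e-52). IFIT5, IFIT3 and IFIT2 rose by 1.27, 1.04 and 0.70. The call of IFIT2 was lost without wortmannin replicate 1 (adjusted p = 0.0561) or 2 (adjusted p = 0.0624). It was also lost with the replicate number as a block (DESeq2 adjusted p = 0.068). The IFITM proteins block the entry of enveloped viruses at the membrane. IFITM1 rose by 3.00 ± 0.32 from 20.9, 7.8 and 21.9 to 136.6, 119.5 and 131.7, and IFITM3 by 1.65 ± 0.12 from 432.1, 308.2 and 337.5 to 1130, 1092 and 1146. IFITM1 shares its strand with another annotated gene, and the IFITM genes are close paralogs, so the division of reads among them is uncertain.

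The machinery of ISG15, a ubiquitin-like protein that is attached to other proteins in the antiviral state, rose in several of its steps. ISG15 itself went from 838.4, 581.4 and 523.6 normalized counts to 1400, 1252 and 1463, a log2 fold change of 1.09 ± 0.14, with vehicle replicate 1 the highest of the vehicles. Its conjugating enzyme UBE2L6 rose by 2.81 ± 0.29 (18.4, 17.8 and 14.9 to 119.5, 109.8 and 129.4), and USP18, the protease that removes it and also restrains the interferon receptor, by 1.45 ± 0.17. HERC6 rose by 2.06 ± 0.12, while HERC5, the main human ligase for ISG15, had only 10 to 23 counts and received no adjusted p-value.

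Other effectors rose by similar amounts. They included CMPK2, a mitochondrial nucleotide kinase (2.26 ± 0.20), RSAD2, which makes the chain terminator ddhCTP (2.36 ± 0.40), XAF1, a partner of the apoptosis inhibitor XIAP (3.11 ± 0.25), and EPSTI1 (2.46 ± 0.30). RSAD2 had 10 to 15 counts in the vehicle libraries and 51 to 60 with wortmannin. IFI6 rose by 1.88 ± 0.39, but its vehicle libraries were uneven, at 650.6, 302.5 and 309.6 normalized counts against 1404, 1387 and 1836. IFI44 went from 159.6, 122 and 133.4 to 540, 548.1 and 554.2, a difference many times the spread within either group. TRIM22 and SAMD9L, antiviral restriction factors, had among the largest fold changes at 3.52 ± 0.55 and 3.29 ± 0.57, on 2 to 6 counts per vehicle library and 34 to 45 per wortmannin library. These 2 genes lay at the limit of the filter on low counts and received no adjusted p-value in 11 and 12 of the 14 alternative fits.

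The effectors that did not reach 1.5-fold were often well counted. ADAR, the RNA-editing enzyme, was higher by 0.43 (adjusted p = 1.63e-09), BST2, which tethers budding virus, by 0.52 (adjusted p = 0.00017), and TRIM25, a ubiquitin ligase for RIG-I, by 0.40 (adjusted p = 2.76e-08). NMI (0.05), ISG20 (0.20), APOL2 (0.20) and CXCL11 (0.77, 17 to 41 counts) did not pass the test. The chemokine gene CXCL10, with 7 to 23 counts, was not tested.

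**Figure D2:**
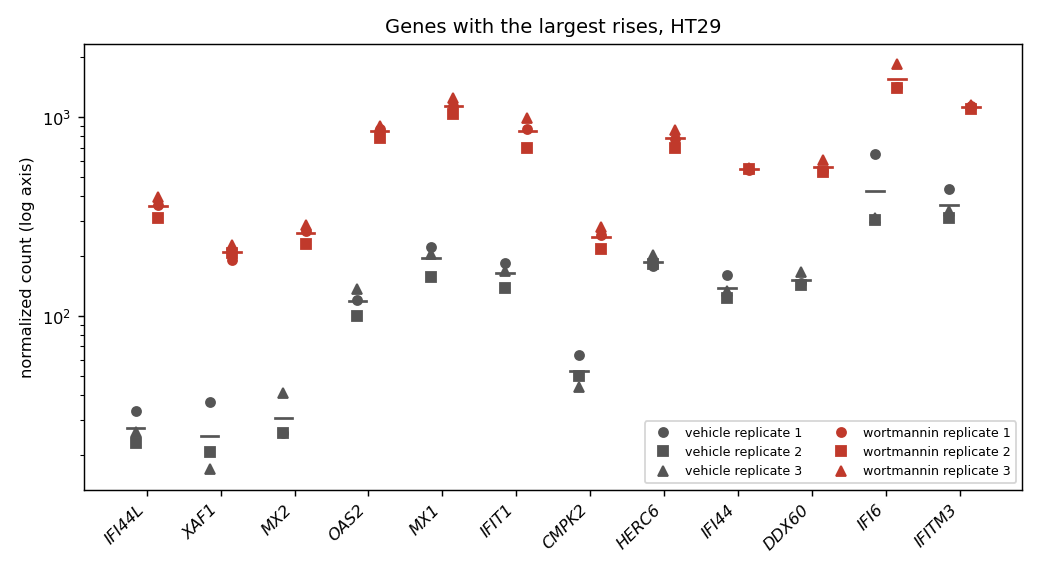
Normalized counts (log axis) in each of the 3 vehicle (grey) and 3 wortmannin (red) libraries for the 12 genes with the largest rises among well-counted DEGs, with bars at the group means and a marker shape per replicate number. The genes were chosen so that all wortmannin libraries lie above all vehicle libraries, and the vehicle libraries of IFI6 are the most uneven.

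Since these genes rose together, their promoter windows were searched for the letters of known elements. The windows are those of RefSeq on GRCh38.p14, from 250 bases before to 50 bases after the transcription start. The interferon element was searched as GAAANNGAAA on both strands, which does not overlap the letters of the other motifs. Of the 46 effectors that rose, 37 had a window, and 25 of these (67.6%) held the element, against 382 of 10076 tested genes with a window (3.79%) and 3.57% of all 35116 windows. Effectors that were tested and were not DEGs held it about as often (9 of 14, 64.3%). Upregulated DEGs outside the 4 interferon lists held it in 7 of 136 windows (5.15%), and downregulated DEGs in 0 of 65. The FOXO element TGTTTAC was found in 6.52% of the windows of upregulated DEGs and in 3.61% of those of all tested genes. The sterol element TCACNCCAC was found in 1.09% and 1.44%. These shares are descriptions, and a match is not a proven binding site.

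The windows of the 4 effectors with the largest rises that held the element are shown because they carry the letters searched. They are IFI44L (chr1:78620198-78620497, plus strand), IFITM1 (chr11:313790-314089, plus strand), MX1 (chr21:41420308-41420607, plus strand) and EPSTI1 (chr13:42992192-42992491, minus strand). Capitals mark the interferon element on either strand, and all lines read 5′ to 3′ along the gene.
IFI44L: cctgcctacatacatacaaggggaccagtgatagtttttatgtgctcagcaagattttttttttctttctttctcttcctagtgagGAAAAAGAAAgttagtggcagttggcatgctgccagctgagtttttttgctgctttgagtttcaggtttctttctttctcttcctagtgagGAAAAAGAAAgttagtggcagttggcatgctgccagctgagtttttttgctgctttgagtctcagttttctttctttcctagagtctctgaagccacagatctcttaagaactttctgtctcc
IFITM1: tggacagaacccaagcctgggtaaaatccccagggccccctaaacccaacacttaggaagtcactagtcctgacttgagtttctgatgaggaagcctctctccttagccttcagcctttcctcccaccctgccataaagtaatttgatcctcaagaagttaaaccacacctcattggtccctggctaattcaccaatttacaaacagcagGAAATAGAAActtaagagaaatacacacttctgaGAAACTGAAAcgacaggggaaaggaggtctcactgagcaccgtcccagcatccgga
MX1: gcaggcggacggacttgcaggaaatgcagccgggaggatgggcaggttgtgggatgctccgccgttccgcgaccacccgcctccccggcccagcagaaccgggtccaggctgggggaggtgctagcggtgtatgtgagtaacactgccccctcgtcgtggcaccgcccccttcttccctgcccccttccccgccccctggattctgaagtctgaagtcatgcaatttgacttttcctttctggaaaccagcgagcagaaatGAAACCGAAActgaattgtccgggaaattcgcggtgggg
EPSTI1: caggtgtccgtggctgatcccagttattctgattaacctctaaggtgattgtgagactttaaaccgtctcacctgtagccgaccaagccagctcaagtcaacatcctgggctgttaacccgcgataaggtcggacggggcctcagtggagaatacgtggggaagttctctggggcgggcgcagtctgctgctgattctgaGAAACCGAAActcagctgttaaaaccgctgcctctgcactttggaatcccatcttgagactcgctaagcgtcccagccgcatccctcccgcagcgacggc
Counted from the transcription start as position 0, the marked elements began at -164 and -73 in IFI44L, at -40 and -6 in IFITM1, at -50 in EPSTI1 and at position 11 in MX1, within the transcribed part.

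The sensors of viral nucleic acid are themselves induced by interferon. Of 18 listed genes 16 were tested, and 6 rose (37.5%, against 1.93% of all genes tested). RIGI, the helicase that detects RNA with 5′ triphosphates, went from 259, 257.5 and 316.6 normalized counts to 816.3, 746.5 and 883, a log2 fold change of 1.55 ± 0.12 (SE, DESeq2 adjusted p = 1.62e-37). IFIH1, also called MDA5, which detects long double-stranded RNA, rose by 1.21 ± 0.13, and their regulator DHX58 by 1.46 ± 0.17. DDX60, DDX60L and TLR3 rose by 1.88, 1.53 and 0.74. STING1, the adaptor of DNA sensing, was higher by 0.37 without reaching 1.5-fold (adjusted p = 0.00327), while CGAS (0.06), MAVS (0.11) and the kinase TBK1 (-0.07) did not pass the test.

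Among 33 ligands, receptors and signal transducers of interferon, 22 were tested and 5 rose (22.7%, against 1.93% of all genes tested). Transcription factors of the classical complex were among them. IRF9 went from 374.4, 271.1 and 336.5 normalized counts to 818.5, 758 and 707.3 (log2 fold change 1.23 ± 0.13), and STAT2 from 472.6, 442.3 and 459.9 to 733.1, 727.9 and 758.4 (0.69 ± 0.09). IRF7, which amplifies interferon production, rose by 0.80 ± 0.11. JAK2 rose by 0.62 ± 0.21 (adjusted p = 0.0228), in a gene that overlaps 11 other annotated genes of the same strand, a call that was lost without any 1 of the 6 libraries (adjusted p = 0.0681 to 0.137). The receptor subunits IFNAR1 (-0.03) and IFNAR2 (0.15) did not pass the test, nor did IRF1 (0.09), IRF3 (-0.15), JAK1 (0.15) or TYK2 (0.01).

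The genes of the interferons themselves were at or near the detection limit. IFNB1 had 0, 1 and 0 counts in vehicle and 0, 0 and 1 with wortmannin, and IFNL1 had 1, 1 and 0 against 1, 3 and 3. IFNG and IFNK had no count, and IFNL2 and IFNL3 each had 1 count in all. A difference in these genes was not detectable at this depth. IFNE, an interferon of mucosal epithelium, was counted at 81, 152 and 126 in vehicle and 139, 161 and 113 with wortmannin (0.35, adjusted p = 0.17). IFNE was the only interferon gene with an adjusted p-value.

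In the pathway of MHC class I antigen presentation, 4 of 20 tested genes rose (20%, against 1.93% of all genes tested). They were NLRC5, the transactivator of the class I genes (2.02 ± 0.40), the immunoproteasome subunits PSMB9 (1.32 ± 0.37) and PSMB8 (0.64 ± 0.14), and the peptide transporter TAP1 (0.77 ± 0.14). The calls of both immunoproteasome genes depended on single libraries. PSMB9 lost its call without vehicle replicate 2 (adjusted p = 0.0536), and PSMB8 was under 1.5-fold without vehicle replicate 2 (0.57) or 3 (0.58). By adjusted p alone 10 of the 20 were higher (50%, against 7.75% of all genes tested) and 2 were lower (10%, against 11.3%). The median log2 fold change of the list was 0.31. No class I molecule on the list was a DEG. B2M (0.07), the invariant light chain, did not pass the test, and HLA-C (0.33, adjusted p = 0.0118) and HLA-E (0.29, adjusted p = 0.000721) were higher by adjusted p alone. The chaperones CALR (-0.39) and PDIA3 (-0.31), members of the same list, were lower by adjusted p alone. Class II genes such as HLA-DRA and HLA-DPA1 had no count in the 6 libraries, and 0 of the 4 class II list members tested passed the test.

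The cell cycle was examined next, with 32 genes of mitosis. All 32 were lower by adjusted p alone, against 11.3% of all genes tested. Of them 12 fell by more than 1.5-fold (37.5%, against 0.738% of all genes tested). The median log2 fold change was -0.55. In 31 of the 32 all wortmannin libraries lay below all vehicle libraries, which was the case for 23.4% of all genes tested. The summed level was 4558, 4945 and 5062 CPM in vehicle and 3523, 3638 and 3474 CPM with wortmannin. Vehicle replicate 1, which stood apart, did not carry this result. Without it all 32 were lower by adjusted p alone, 14 fell and the median was -0.54.

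CCNB1 (ENSG00000134057; chromosome 5, 69167135 to 69178245), the cyclin that drives entry into mitosis, fell from 4333, 3972 and 4054 normalized counts to 2129, 2132 and 2097, a log2 fold change of -0.96 ± 0.06 (SE, DESeq2 adjusted p = 4.55e-54). CCNB2 fell by 0.83 on the log2 scale. PLK1 (ENSG00000166851; chromosome 16, 23677656 to 23690367), a kinase of mitotic entry and spindle assembly, fell from 4203, 3771 and 3938 to 2189, 2220 and 2167 (-0.86 ± 0.06). In these genes the wortmannin libraries lay close together and far below the lowest vehicle library.

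Regulators of the metaphase to anaphase transition fell as well. CDC20, the activator of the anaphase-promoting complex, went from 3813, 3520 and 3518 normalized counts to 2026, 2000 and 2037 (-0.84 ± 0.06). UBE2C, the conjugating enzyme of that complex, fell by 0.59, a call lost without vehicle replicate 1 (-0.52) or wortmannin replicate 3 (-0.55). The Aurora kinase gene AURKA (-0.73), the survivin gene BIRC5 (-0.87), the centromere genes CENPA (-0.90) and CENPE (-0.77), the phosphatase CDC25C (-0.76), the kinesin KIF20A (-0.70) and the spindle factor DLGAP5 (-0.85) completed the 12. MKI67, the proliferation marker, was lower by only 0.35 (adjusted p = 0.00327), and CDK1, the partner of the B cyclins, by 0.15 (adjusted p = 0.0472).

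The largest falls among well-counted genes included cell division genes outside that list. PTTG1 (ENSG00000164611; chromosome 5, 160421855 to 160428739), or securin, which holds back separase until anaphase, fell from 2763, 2142 and 2015 normalized counts to 1092, 967 and 957.8 (-1.20 ± 0.11, DESeq2 adjusted p = 3.64e-23). UBE2S, the chain-elongating enzyme of the anaphase-promoting complex, fell from 5982, 4522 and 4999 to 2609, 2556 and 2428 (-1.03 ± 0.10). Its pseudogene copy UBE2SP1 (-1.04 ± 0.25) shares sequence with it, so its reads are uncertain. The helicase PIF1 (-0.91), the centromere protein CENPW (-0.90) and the nucleosome-binding HMGN5 (-0.93) were the others of the 12 largest falls. In all 6 of these genes vehicle replicate 1 was the highest library, and it lay farthest from the other vehicles in PTTG1, UBE2SP1 and HMGN5.

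**Figure D3:**
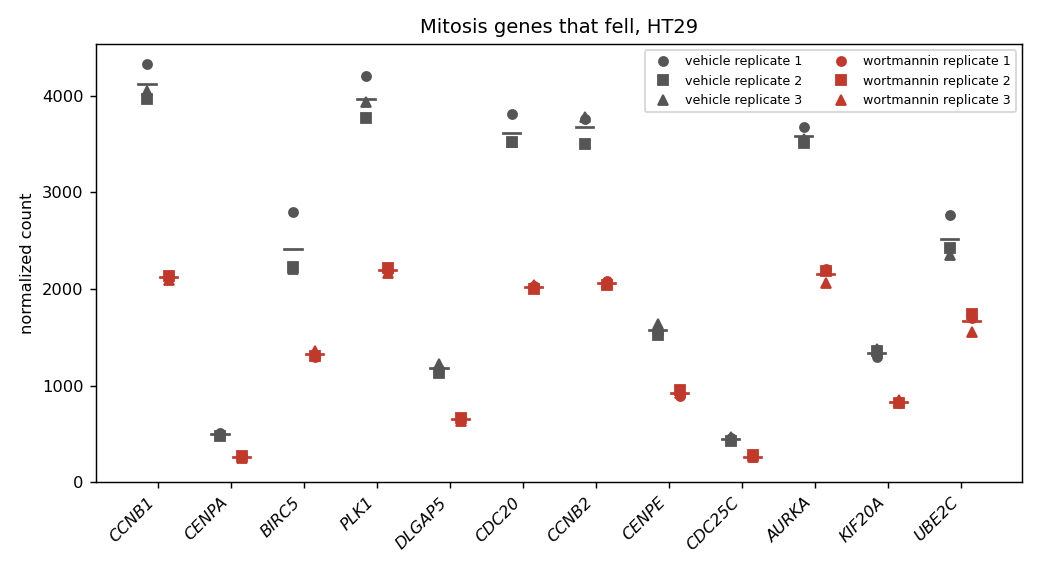
Normalized counts in each of the 3 vehicle (grey) and 3 wortmannin (red) libraries for the 12 mitosis genes that fell, with bars at the group means, a marker shape per replicate number and an axis that starts at 0. The wortmannin libraries lie close together and below all vehicle libraries in each gene.

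The downregulated DEGs as a whole depended on vehicle replicate 1. It was the highest of the 3 vehicles in 84 of the 100, and their median exon length was 2273 bases, against 5055 for all genes tested and 5718 for upregulated DEGs. Without this library 49 DEGs were downregulated, of which 44 were among the 100, and their median exon length was 3291 bases. Of the 262 upregulated DEGs, 200 were also upregulated without vehicle replicate 1. Without vehicle replicate 3 instead, 156 DEGs were downregulated. The part of vehicle replicate 1 in these falls was not tested beyond this.

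Genes of DNA replication and S phase did not follow those of mitosis. Of 41 tested members, 10 were higher (24.4%) and 5 lower (12.2%) by adjusted p alone, against 7.75% and 11.3% of all genes tested. Of these members 1 rose by more than 1.5-fold, and the median log2 fold change was 0.00. Cyclin E2, CCNE2, which acts with CDK2 at the start of S phase, rose from 283.6, 230.4 and 252.8 normalized counts to 398, 379 and 371.5 (0.59 ± 0.12, adjusted p = 4.56e-05), a change at the limit of 1.5-fold that fell short of it in 5 alternatives. E2F2 (0.52), DTL (0.39), MCM10 (0.38) and CDC6 (0.28), genes of E2F control and of replication licensing, were higher by adjusted p alone, while cyclin A2, CCNA2 (-0.52), and the thymidine kinase TK1 (-0.49) were lower. Among 16 tested G1 cyclins and inhibitors of cyclin-dependent kinases, CDKN2A, which encodes p16 and ARF, fell by 0.65 (adjusted p = 5.29e-10). Without vehicle replicate 1 its change was -0.54, under the fold threshold. CCND1 was higher by 0.22 (adjusted p = 0.00172), and MYC (0.06) did not pass the test. The p53 target list had no DEG, with 0 of 25 tested genes higher and 2 lower by adjusted p alone.

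To see whether the targeted pathway moved at the transcript level, 45 tested genes of PI3K, AKT and mTOR were examined. Only PLK1, described above, was a DEG among them, and it is a kinase outside the PI3K family that is also on the mitosis list. The catalytic subunits PIK3CA (725.5, 769.8 and 844.1 in vehicle against 823.8, 814.7 and 858.1, log2 fold change 0.09), PIK3CB (0.04) and PIK3C3 (0.12), AKT1 (-0.13) and MTOR (0.04) did not pass the test. By adjusted p alone 10 members were higher (22.2%) and 4 lower (8.89%), against 7.75% and 11.3% of all genes tested. The higher ones included the mTOR inhibitor DEPTOR (0.55, adjusted p = 0.0111) and NDRG1 (0.53, adjusted p = 4.67e-05), and the lower ones the mTORC1 regulators DDIT4 (-0.44) and RHEB (-0.33).

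Of 32 tested FOXO targets and genes of insulin receptor signalling, 3 rose, none fell and 9 were higher by adjusted p alone, against 1.93% and 7.75% of all genes tested for rises and for higher values. The insulin receptor gene INSR (ENSG00000171105; chromosome 19, 7112255 to 7294414) went from 406.3, 445.9 and 455.9 normalized counts to 712.8, 673 and 750.1, a log2 fold change of 0.70 ± 0.10 (SE, DESeq2 adjusted p = 4.42e-11). TXNIP, an inhibitor of thioredoxin and of glucose uptake, went from 1275, 1244 and 1318 to 2194, 2101 and 2146 (0.75 ± 0.06), and TRIB2 from 98.2, 99.9 and 87.6 to 164.3, 164.7 and 161.4 (0.78 ± 0.17). In all 3 genes the groups were apart by more than their spread. IRS2 (0.48, adjusted p = 2.11e-05), IGF1R (0.38, adjusted p = 0.000231) and ERBB3 (0.19, adjusted p = 0.00168) were higher by less than 1.5-fold. CDKN1B, which encodes p27, was lower by 0.25 (adjusted p = 0.0098), and FOXO1 (0.06) and CCNG2 (-0.13) did not pass the test.

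Genes of amino acid stress under the transcription factor ATF4 were lower. Of 33 tested genes, 19 (57.6%) were lower by adjusted p alone, against 11.3% of all genes tested, and none was higher. The median log2 fold change was -0.19. Asparagine synthetase, ASNS, fell from 1318, 1248 and 1260 normalized counts to 784.3, 714.6 and 756 (-0.76 ± 0.08, DESeq2 adjusted p = 2.03e-20), and PHGDH, the first enzyme of serine synthesis, from 757.4, 647.1 and 639.1 to 434.3, 401.1 and 416.6 (-0.70 ± 0.11). ATF4 itself was lower by 0.39 (adjusted p = 2.07e-06). Chaperones of the endoplasmic reticulum were lower by adjusted p alone in 9 of 22 (40.9%), led by HSP90B1 (-0.49), with no DEG. Of 14 heat shock genes, the mitochondrial co-chaperone HSPE1 fell from 5578, 5072 and 5242 to 3200, 3284 and 3409 (-0.68 ± 0.06) and the small heat shock gene HSPB1 fell by 0.63. For HSPB1 the change was -0.48 without vehicle replicate 1.

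In a list of 35 nuclear genes of the respiratory chain, 27 were lower by adjusted p alone (77.1%, against 11.3% of all genes tested). The list contained no DEG, and its median log2 fold change was -0.30. Without vehicle replicate 1, 26 were lower by adjusted p alone and the median was -0.18. The median exon length of this list, 2790 bases, was below that of all genes tested. The 13 mRNAs of the mitochondrial genome had a median of -0.05, and 1 was higher by adjusted p alone. Of 30 tested glycolysis and hypoxia genes, 9 (30%) were lower by adjusted p alone, among them LDHA (-0.38) and ENO1 (-0.35). ALDOC rose by 0.63 ± 0.11, a call lost without vehicle replicate 3 (0.56).

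Among 35 tested genes of xenobiotic metabolism and efflux, 3 rose (8.57%, against 1.93% of all genes tested) and none fell. The aldo-keto reductases AKR1C1 and AKR1C2 went from 333.9, 299.6 and 313.6 normalized counts to 789.7, 668.6 and 728.7 (1.21 ± 0.11) and from 246.7, 189.8 and 223 to 625.3, 490.6 and 579.2 (1.37 ± 0.14). They are close paralogs, so the division of reads between them is uncertain. The efflux pump ABCC2, or MRP2, rose by 1.55 ± 0.36 on 14.7, 13.6 and 21.9 normalized counts in vehicle. Elsewhere the complement factor gene CFB rose by 1.40 ± 0.24, the lysosomal glucosidase GAA by 1.04 ± 0.18, the intestinal stem cell gene LGR5 by 0.67 ± 0.09, the sterol reductase TM7SF2 by 0.64 ± 0.09 and the lipid exporter ABCG1 by 0.62 ± 0.19. The call of ABCG1 was lost in 8 alternatives, that of TM7SF2 without vehicle replicate 3 or with the batch B vehicle (0.58 in both), and that of LGR5 with the batch B vehicle (0.56). The nucleolar gene LYAR (-0.60) and NFKBIB (-0.59), an inhibitor of NF-kB, fell. Without vehicle replicate 1 both stayed under the fold threshold, at -0.45 and -0.48. LYAR also did so with the batch B vehicle (-0.49) and without wortmannin replicate 1 (-0.58). NFKBIB also did so with edgeR (-0.58), with the replicate number as a block (-0.58) and without wortmannin replicate 2 (-0.57) or 3 (-0.58).

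The cholesterol synthesis gene HMGCS1 (0.14) and the regulator SREBF1 (0.02) did not pass the test. No DEG was found among the genes tested for autophagy (36), endosomal traffic (25), fatty acid synthesis (15), immediate early and ERK output (28), EGFR ligands and receptors (16), keratins and junctions (25), apoptosis (27), TGF-beta and BMP (24) and intestinal differentiation (27), nor among 8 transcripts without a poly(A) tail. By adjusted p alone these lists had between 0 and 6 members higher and between 0 and 5 lower. As only 2.67% of all genes tested were DEGs, and 7.75% were higher and 11.3% lower by adjusted p alone, nothing is read from the absence of DEGs in lists of this size.

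**Figure D4:**
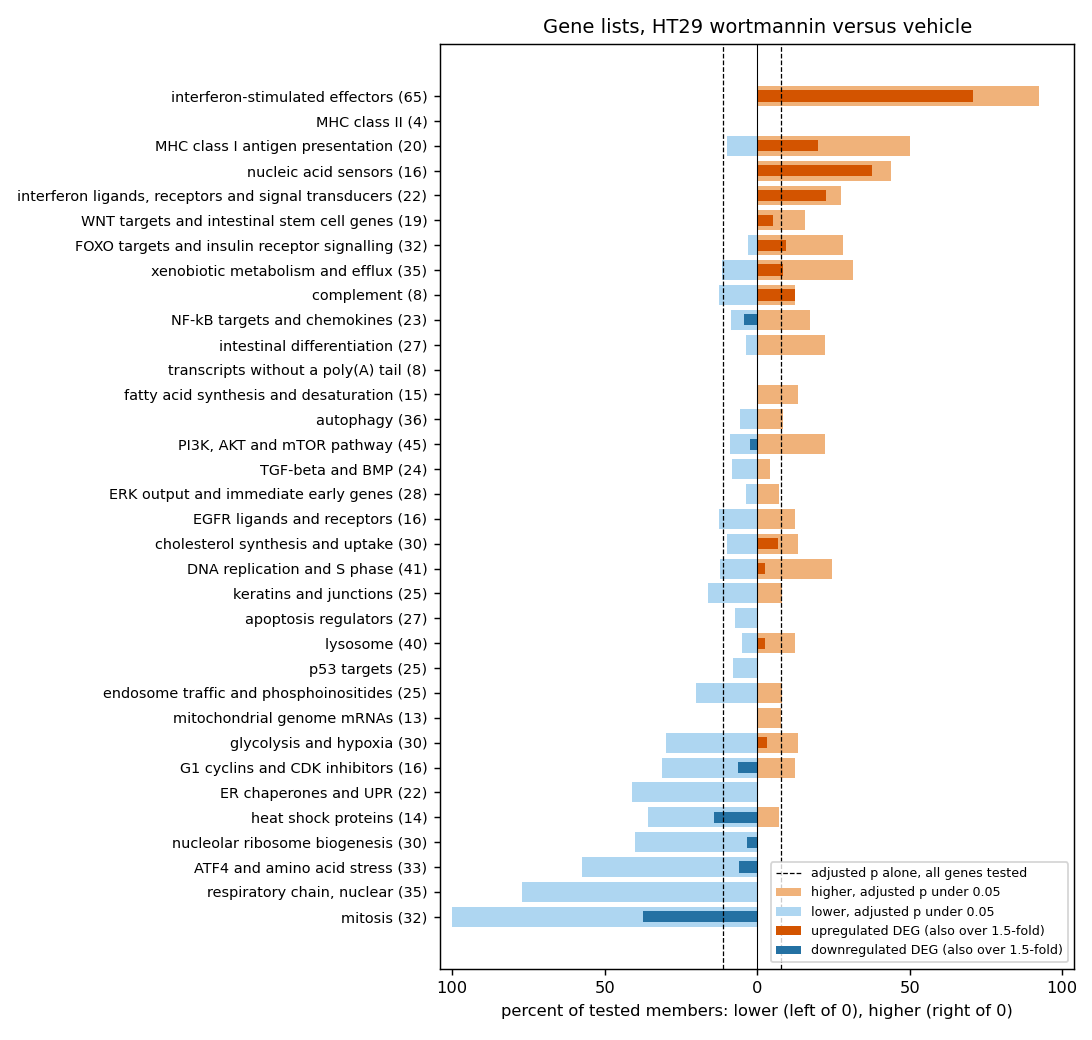
Percent of the tested members of each gene list (number in brackets) that were higher (right of 0) or lower (left of 0) with wortmannin in HT29, by adjusted p alone (pale bars) or as DEGs (dark bars), ordered by the list's median log2 fold change. Dashed lines mark the percent of all genes tested by adjusted p alone, 7.75% higher and 11.3% lower, and the interferon-stimulated effectors and the mitosis genes lie at the ends.

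Whether the response was shared by SW1783 was tested as an interaction over the 12 libraries of batch A. The study kept the lines in different media, with carbon dioxide only for HT29, and plated them at different densities. A difference between the lines cannot be told apart from a difference between these conditions. The change differed for 460 of 13883 genes, more positive in HT29 for 337 (2.43%) and more negative for 123 (0.886%). The balance was 313 and 184 with edgeR. Of 66 interferon-stimulated effectors in this test, 47 had a more positive change in HT29 and none a more negative one. In SW1783 alone, the median log2 fold change of the list was 0.00, with 1 gene up, IFITM1 (0.74), and 1 down, OASL (-0.79), against 1.73% and 0.99% of all genes tested there. The effectors were not silent in that line. IFI44L had 891, 1104 and 881 counts in the vehicle of SW1783 and 912, 801 and 929 with wortmannin, higher in vehicle than in HT29, and MX1 had 212, 242 and 200 against 210, 215 and 244. The difference between the lines was 4.04 ± 0.20 for IFI44L (DESeq2 adjusted p = 1.79e-90), 2.71 ± 0.18 for MX1, 2.68 ± 0.19 for OAS2 and 2.46 ± 0.21 for IFIT1. The summed level of the list was 3027, 3048 and 2998 CPM in vehicle and 3208, 3222 and 3275 CPM with wortmannin in SW1783.

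For IRF9 the change was also more positive in HT29, by 1.16 (adjusted p = 8.03e-10), with SW1783 at 0.09. For STAT2 the difference of 0.21 did not pass the test (adjusted p = 0.0949), and STAT2 was at 0.51 in SW1783. Mitosis genes had a median of -0.38 in SW1783, where CDC20 fell (-0.65). The difference passed the threshold for 1 of 32, against 0.886% of all genes tested with a more negative change. This was CCNB2, which had -0.83 in HT29 and -0.19 in SW1783. By adjusted p alone further mitosis genes changed more negatively in HT29, such as CCNB1 (-0.51, adjusted p = 6.91e-19), DLGAP5 (-0.50, adjusted p = 3.6e-09) and PLK1 (-0.39, adjusted p = 2.78e-07), without reaching 1.5-fold. Of the replication genes 11 of 41 fell in SW1783, against 0.99% of all genes tested there, and the median was -0.48. The change was more positive in HT29 for 13 of 41 and more negative for none, against 2.43% and 0.886% of all genes tested. E2F2 was at 0.52 in HT29 and -0.70 in SW1783, and MCM10 at 0.38 and -0.63. ASNS and PHGDH changed more negatively in HT29, with differences of -1.09 and -0.81. Of the FOXO and insulin receptor genes 9 of 31 rose in SW1783, against 1.73% of all genes tested there, with a median of 0.25. For 4 of 32 (YPEL3, YPEL2, CCNG2 and KLHL24) the change was more negative in HT29, against 0.886% of all genes tested. It was more positive for PMAIP1 alone, against 2.43% of all genes tested. TXNIP rose by 0.75 in HT29 and 0.77 in SW1783 (difference -0.01 ± 0.11).

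**Figure D5:**
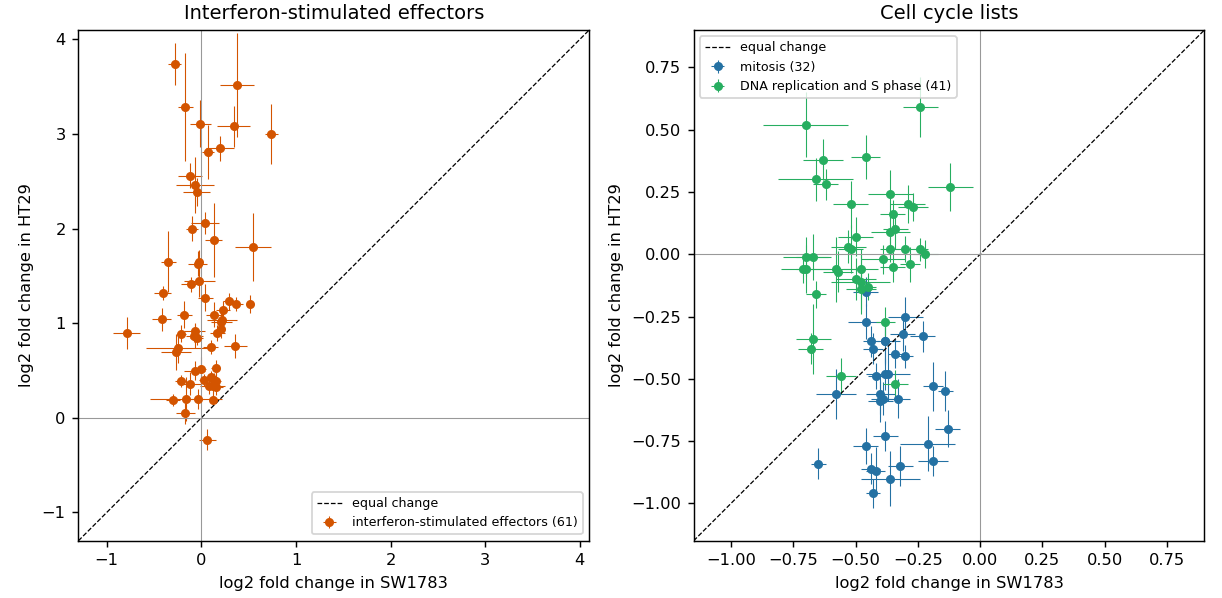
Log2 fold change with wortmannin in HT29 (vertical axis) against SW1783 (horizontal axis) for 61 interferon-stimulated effectors tested in both lines (left) and for 32 mitosis and 41 replication genes (right), with bars for the standard error and a dashed line of equal change. The effectors spread upwards in HT29 and stay near 0 in SW1783, and most replication genes lie left of 0 and above the line of equal change.

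The change with wortmannin was also set against that with the high dose of ACD, 500 µg/mL for 24 h in HT29 cells of batch B, each against the vehicle of its own batch. The comparison of the changes rests on vehicles that may be the same cultures (above), so the 2 vehicle groups may not be independent. The changes differed for 703 of 13884 genes, more positive with wortmannin for 456 (3.28%) and more negative for 247 (1.78%). Without ACD high replicate 1 the numbers were 470 and 412. Of 64 interferon-stimulated effectors, 43 changed more positively with wortmannin and none more negatively. With ACD alone, fitted on its own 6 libraries, none rose and TNFSF10 fell (-0.76), against 1.14% and 1.01% of all genes tested. IFI44L, OAS2 and MX1 were among the 5 largest positive differences, at 4.54 ± 0.41, 3.63 ± 0.29 and 3.04 ± 0.24. The others were ENSG00000281181 and ENSG00000280614, near-identical copies on chromosome 21 that did not pass the test with wortmannin (0.09 and -0.04) and fell with ACD.

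The agents moved the ATF4 list in opposite directions. With the high dose of ACD 25 of 35 tested members rose, against 1.14% of all genes tested. The change was more negative with wortmannin for 29 of 34, against 1.78% of all genes tested. ASNS was at -0.76 with wortmannin and 2.08 with ACD. Of the mitosis genes none was a DEG with ACD, and 20 of 32 changed more negatively with wortmannin, against 1.78% of all genes tested. The xenobiotic genes AKR1C1 and AKR1C2 rose with both agents, by 1.21 and 1.37 with wortmannin and by 1.37 and 1.43 with ACD. The largest negative differences belonged to CXCR5, CYP1A1 (-7.87), CXCL1 (-4.67), MT-RNR1 (-4.61) and RN7SL2 (-4.25). With wortmannin itself CXCL1 (-0.61), MT-RNR1 (-0.03) and RN7SL2 (-0.11) did not pass the test and CYP1A1, at 8 to 19 counts, received no adjusted p-value. The estimate for CXCR5 is not printed as an effect, since its counts were 410, 100 and 0 in the batch A vehicles and 0 in all wortmannin libraries, and edgeR gave an adjusted p of 0.574 for the difference.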

How the data were processed

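RNA of HT29 and SW1783 cells was made by the authors into directional mRNA libraries and sequenced as paired-end reads. Per the labels and the study's methods, reads were trimmed with Trim Galore, aligned with STAR to GRCh38 and quantified with RSEM 1.3.3. The methods also write hg19, and the strand setting of the counting is not given in the sources used here. The deposited table holds expected counts per gene, not normalized, which were rounded to whole numbers since 8.84% were not whole. Groups came from the labels.

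DESeq2 1.42.0 (Wald test, two-sided, Benjamini-Hochberg adjustment over all genes of a contrast, R 4.3.3) was run on 6 libraries, and on 12 for the 2 differences of changes. A DEG had an adjusted p under 0.05 and a log2 fold change beyond 0.585. Errors are SE, n = 3 per group. Genes without an adjusted p were not counted, and some genes that the rules name are not reported here. Scripts were tested on simulated data. Levels are DESeq2-normalized counts or CPM, compared between libraries of a gene, not between genes. GENCODE v44 (GRCh38) gave the gene positions.

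The comparison, the gene lists and the rules were chosen with earlier results of these data known. Of 1021 symbols listed, 1018 matched. Named genes were the 12 largest changes per sign among DEGs whose normalized counts averaged at least 100 and whose groups did not overlap, the DEGs of each list (up to 12 for interferon lists, 5 for others), fixed pathway genes, and the 5 largest differences per sign of each difference test. Non-DEG members named beside them were chosen after their values were seen. Alternatives were edgeR 4.0.16, TMM size factors, filters, thinned counts, the batch B vehicle, a replicate block and each library left out.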

Additional observations from a re-analysis of the deposited data

Results flagged for a closer look

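The effect of wortmannin differed between HT29 and SW1783 in a direct test, for 460 genes. The 5 largest differences towards HT29 among genes averaging at least 100 normalized counts over the 12 libraries were those of ENSG00000267645 (5.62 ± 1.27 on the log2 scale), PALM2AKAP2 (5.24 ± 1.24), COL6A3 (4.48 ± 1.25), IFI44L (4.04 ± 0.20) and CERS6-AS1 (3.86). Only IFI44L of these had counts in every library of both lines. The first 3 had no count in the HT29 vehicles and 0 to 11 counts in the wortmannin libraries, and CERS6-AS1 had 0 to 7 counts in SW1783. In HT29 itself CERS6-AS1 did not rise, at -0.49 on the log2 scale (DESeq2 adjusted p = 0.0535). CERS6-AS1 had an adjusted p of 0.261 with edgeR and lost its call when any of 4 libraries was left out.

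Large differences in the other direction were those of GCHFR (-1.81 ± 0.24), HCN2 (-1.68 ± 0.45), NPTXR (-1.43 ± 0.49) and IGF2 (-1.33 ± 0.45). GCHFR, which encodes a regulator of GTP cyclohydrolase, was counted in both lines and kept its call with edgeR (adjusted p = 0.000306). Its counts were 22, 43 and 32 in vehicle and 99, 92 and 102 with wortmannin in SW1783, while in HT29 it was lower by 0.38 on the log2 scale. IGF2 had 2 to 24 counts in SW1783, and HCN2 and NPTXR 4 to 18 and 2 to 14 counts in HT29. The calls of NPTXR, IGF2 and HCN2 were lost when any of 4, 3 and 1 libraries, respectively, was left out. The part of low counts in these differences was not tested.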

How the results depend on the processing

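With the replicate block, that is, the replicate number as a block, 204 genes were DEGs (136 upregulated), 266 differed between the lines and 356 between wortmannin and ACD. Whether the numbers pair the samples is not settled by the counts. The deviations of same-numbered libraries correlated at 0.154, 0.135 and -0.055. Vehicle replicates 1 and 2 correlated best with their own number, and vehicle replicate 3 with another. With no fold threshold there were 2576 genes (1051 higher, 1525 lower), all 32 mitosis genes, 2021 genes that differed between the lines and 1396 for the wortmannin effect minus ACD high effect in HT29. With 1 library left out, the DEGs ranged from 273 to 372, the upregulated from 187 to 224 and the downregulated from 49 to 156. The lowest and the highest number of downregulated DEGs came from leaving out vehicle replicates 1 and 3, respectively. The differences ranged from 402 to 486 between the lines and from 533 to 882 between the agents, where without ACD high replicate 1 the share of more positive changes was 53.3% in place of 64.9%. Under all other alternatives these counts stayed within 1.5 times the reported ones, for example 468 DEGs with edgeR. Wortmannin set directly against ACD, without vehicles, an alternative chosen after the data were seen, gave 891 genes. The interferon-stimulated effectors that rose numbered 37 to 46 under the alternatives that kept the fold threshold, and 37 was the count with the block, where 8 of the 46 had no adjusted p. Of 119 named genes, which include fixed genes that were not DEGs, none changed direction when it was a DEG. The call was lost in at least 1 alternative for 15. Fits in which a DEG had no adjusted p were left out of both counts. This concerned SAMD9L in 12 fits, TRIM22 in 11, PSMB9 in 3 and further genes such as ABCC2, IFITM1 and UBE2L6 in 1 or 2. The causes were not tested. The depth limits genes with few counts, such as the interferon genes.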

Other observations

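Only 74 of the 262 upregulated DEGs were on any list, and some larger ones outside the lists are described here, chosen after their values were seen. BAIAP3, a gene of vesicle traffic, went from 158.3, 132 and 122.4 normalized counts in the vehicle libraries to 394.8, 375.5 and 346.5 with wortmannin, a rise of 1.45 ± 0.14 on the log2 scale (DESeq2 adjusted p = 1.47e-21). The GABA receptor subunit gene GABRP went from 348.6, 339.6 and 310.6 to 715, 761.5 and 782.1 (1.18 ± 0.10), and the serotonin receptor gene HTR1D from 166.9, 180.5 and 190.1 to 411.9, 372.8 and 378.6 (1.11 ± 0.13). ASS1, the argininosuccinate synthase of arginine synthesis, rose by 0.94 ± 0.11 and the secreted glutathione peroxidase gene GPX3 by 0.76 ± 0.10. IGF2, a growth factor gene, went from 2206, 1969 and 1907 to 3265, 3338 and 3433 (0.72 ± 0.07). SLC15A3, an endosomal peptide transporter gene, had 3 to 7 counts in vehicle and 33 to 46 with wortmannin (3.04 on the log2 scale).

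Of the 100 downregulated DEGs 19 were on a list. The others included further genes of cell division, CEP55 (-0.73 ± 0.07), CKS2 (-0.71 ± 0.09), CDCA3 (-0.65 ± 0.09) and TROAP (-0.73 ± 0.08), and the chromatin gene HMGB2, which went from 6459, 5369 and 5001 normalized counts to 3428, 3504 and 3378. The respiratory chain genes COX8A (-0.66 ± 0.12) and UQCR10 (-0.62 ± 0.10) were among them too, and in both vehicle replicate 1 was the highest library. The 2 DEGs that fell more than 4-fold were ENSG00000260537, with 31, 56 and 62 counts in vehicle and 2, 0 and 1 with wortmannin, and the lncRNA ENSG00000268854, with 119, 73 and 13 against 0, 5 and 3.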
